A study of Mus musculus with 12 samples.

Results

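Transcripts of 8 regulators of G protein signalling (RGS), Rgs1, Rgs2, Rgs10, Rgs12, Rgs14, Rgs16, Rgs18 and Rgs19, were followed in bone marrow-derived macrophages (BMDMs). They were chosen by gene symbol from the 24421 symbols of the count table, with earlier results of these data known. Rgs2 was included because it fell with immune complex under the inhibitor, so its values in that contrast are a description and not a test. All 8 passed the filter on low counts, which kept 11468 genes. Marrow of wild-type C57BL/6 mice was cultured for 5 days with M-CSF at 100 ng/mL, with new medium on day 3. The cells then received I-BET151 (iBET, a small molecule that keeps BET bromodomain proteins from binding acetylated histones) at 5.0 µM or its solvent DMSO, given as 5% in the labels. The methods name 5% DMSO only for the drug given to mice. For cultures they describe dilution of a stock in DMSO, which leaves the share of DMSO in the medium open to doubt. Each arm was stimulated for 4 hours with ovalbumin alone (Ova) or with ovalbumin bound by IgG as an immune complex (IC), which cross-links Fcγ receptors. The labels describe drug and stimulus as simultaneous, but by the methods the drug came before the stimulus, which leaves their order open to doubt. The 4 groups (DMSO Ova, DMSO IC, iBET Ova and iBET IC) held 3 libraries each. Every group drew on the same 3 mice, and a library is named by its group and mouse, such as DMSO Ova A.

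RGS proteins bind the active, GTP-bound alpha subunits of heterotrimeric G proteins and speed up GTP hydrolysis, which shortens signalling from G protein-coupled receptors such as chemokine receptors. They are grouped by sequence. Rgs1, Rgs2, Rgs16 and Rgs18 belong to the R4 subfamily of small proteins, which hold little more than the RGS domain, Rgs10, Rgs12 and Rgs14 to the R12 subfamily, and Rgs19 to the RZ subfamily. In leukocytes several of them limit how far cells move toward chemokines.

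Total counts were 7.55 to 17.39 M per library. In library DMSO Ova A the ribosomal precursor Rn45s took 77.4% of the counts and left 1.77 M for other genes, against 1.41% to 7.83% and 7.25 to 16.9 M in the other libraries. This library had the lowest counts of the members, with 8 for Rgs12 and 17 for Rgs16, so the members' calls that changed without it are given both ways. All 8 macrophage markers examined were present, with a summed level of 6215 to 8786 CPM (counts scaled to a common library size). Neutrophil markers summed to 7.70 to 50.4 CPM, those of B cells to at most 1.33, of dendritic cells to at most 1.45, of stromal cells to at most 1.03 and of T and NK cells to at most 0.61, and the 4 mast cell markers were at 0. In bulk RNA, fewer cells of a type and less RNA per cell cannot be told apart.

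In the GENCODE annotation of GRCm38 (mm10), 4 of the members lie on chromosome 1. Rgs2 (chr1:143999338-144004161), Rgs1 (chr1:144242296-144249242) and Rgs18 (chr1:144752683-144775435) all lie on the minus strand. With Rgs13 and Rgs21 they are the 5 protein-coding genes of a stretch of 776.1 kb, and both Rgs13 and Rgs21 had 0 counts in all 12 libraries. Rgs16 (chr1:153740349-153745468, plus strand) lies 8.96 Mb further on. Rgs10 is at chr7:128373621-128418758 (minus), Rgs12 at chr5:34949445-35039644 (plus), Rgs14 at chr13:55369732-55384687 (plus) and Rgs19 at chr2:181688419-181693977 (minus). Counts of Rgs16 and Rgs12, which overlap annotated antisense genes, and of Rgs10, which overlaps a gene on its own strand, are uncertain to that extent, since the use of strand in counting was not stated.

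RefSeq start sites (GRCm38.p6) gave promoter windows for 5 of the 8 members. The 250 bases before the start site are shown 5′ to 3′ for 3 genes that were lower with iBET (Rgs2, Rgs16 and Rgs19) and for Rgs10, which was not called. Rgs12, the remaining member with windows, was also not called, and its matches are given below the sequences. Capitals mark matches to GAGGAA or its reverse complement, the ETS motif bound by factors such as PU.1. The windows are chr1:144004150-144004399 (minus) for Rgs2, chr1:153740103-153740352 (plus) for Rgs16, chr2:181693978-181694227 (minus) for the first of 3 start sites of Rgs19, and chr7:128418173-128418422 (minus) for Rgs10.
Rgs2: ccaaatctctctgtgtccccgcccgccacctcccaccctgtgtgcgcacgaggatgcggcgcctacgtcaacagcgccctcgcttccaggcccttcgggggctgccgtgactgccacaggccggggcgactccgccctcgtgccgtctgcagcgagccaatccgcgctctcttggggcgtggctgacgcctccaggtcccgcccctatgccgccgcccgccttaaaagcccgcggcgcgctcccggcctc
Rgs16: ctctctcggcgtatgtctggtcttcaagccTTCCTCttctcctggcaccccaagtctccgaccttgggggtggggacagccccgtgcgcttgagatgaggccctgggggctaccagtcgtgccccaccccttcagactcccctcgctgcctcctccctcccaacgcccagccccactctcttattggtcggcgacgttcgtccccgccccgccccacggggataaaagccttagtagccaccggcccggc
Rgs19: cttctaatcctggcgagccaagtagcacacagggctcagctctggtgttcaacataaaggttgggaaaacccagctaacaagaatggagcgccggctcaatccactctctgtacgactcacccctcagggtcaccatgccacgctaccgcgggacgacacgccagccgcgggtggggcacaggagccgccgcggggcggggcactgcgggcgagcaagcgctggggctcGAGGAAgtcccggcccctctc
Rgs10: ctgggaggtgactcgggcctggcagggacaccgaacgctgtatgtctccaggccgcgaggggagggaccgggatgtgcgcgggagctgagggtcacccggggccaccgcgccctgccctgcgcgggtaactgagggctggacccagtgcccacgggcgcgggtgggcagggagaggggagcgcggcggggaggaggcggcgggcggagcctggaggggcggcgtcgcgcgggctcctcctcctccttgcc
The windows shown for Rgs16, from -220 to -215, and for Rgs19, from -21 to -16, each held 1 ETS match. A match on either strand was found in 23.25% of the 32851 promoter windows of the genome. The other windows of Rgs19 held ETS matches too. Before chr2:181693810 the match lay at -188 to -183, which is the same stretch of bases as in the window shown. Before chr2:181691817 they lay at -110 to -105 and -18 to -13. No match to this motif, to AP-1 (TGANTCA), the cAMP response element (TGACGTCA), the TATA box (TATAAA), STAT (TTCNNNGAA) or NF-kB was found in the windows of Rgs2 and Rgs10. On both strands, these were found in 6.75%, 1.55%, 12.37%, 7.02% and 7.25% of all windows, in that order. For Rgs12, the window before the start site at chr5:34999078 held an ETS match (-72 to -67) and an AP-1 match (-22 to -16). The Rgs12 window before chr5:34949448 held none. The 4 windows shown were rich in G and C, at 72.4% for Rgs2, 66.4% for Rgs16, 64.8% for Rgs19 and 76.4% for Rgs10, against a median of 52.4%. They held 30, 17, 20 and 27 CpG dinucleotides against a median of 6.

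Levels were first compared between the members, per kilobase of annotated exon, in DMSO Ova. Rgs2 was highest at 98.9 ± 8.32 CPM per kb (SD, n = 3), followed by Rgs10 at 89.3 and Rgs1 at 57.7. Rgs19 (20.4), Rgs18 (18.9), Rgs14 (6.23) and Rgs16 (4.72) were intermediate, and Rgs12 was lowest at 0.591 CPM per kb. The ranges of Rgs2 and Rgs10, Rgs10 and Rgs1, Rgs19 and Rgs18, and Rgs14 and Rgs16 overlapped, while Rgs1 and Rgs19, Rgs18 and Rgs14, and Rgs16 and Rgs12 were apart. For Rgs1 the annotated exons cover the whole gene (6947 bases), which lowers its level per kilobase. Rgs10 led the order in both iBET groups. In iBET Ova it was at 101.8 CPM per kb and Rgs2 at 74.1, with ranges that were apart (lowest library of Rgs10 91.3, highest of Rgs2 76.2), and in iBET IC they were at 88.1 and 42.2 CPM per kb.

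**Figure D1:**
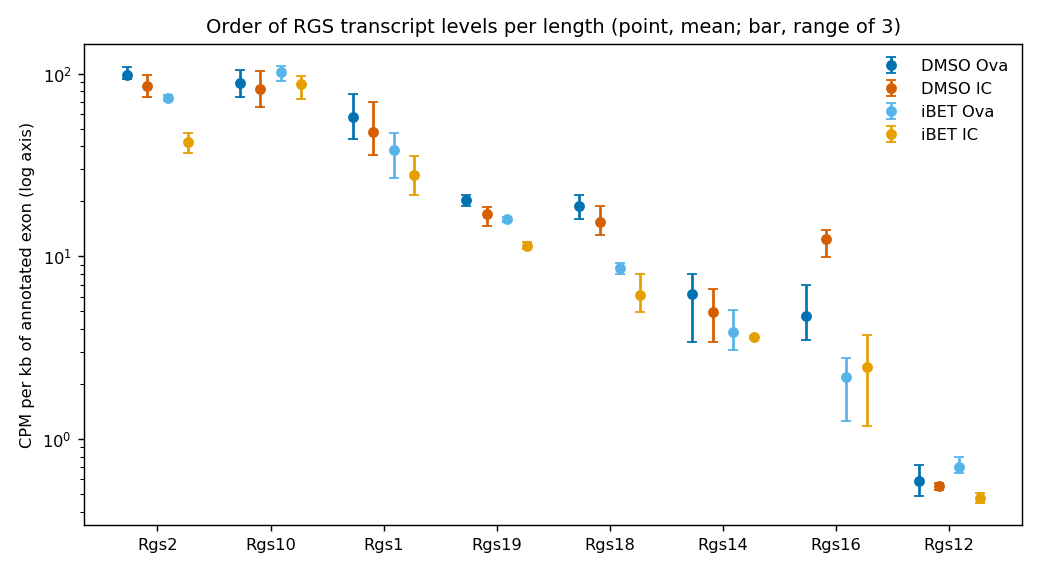
Level of each RGS transcript in CPM per kilobase of annotated exon, on a log axis, with genes ordered by their mean in DMSO Ova (points, mean; bars, lowest to highest of 3 libraries). Rgs2 fell from 98.9 in DMSO Ova to 42.2 CPM per kb in iBET IC, whereas Rgs10 stayed between 82.2 and 101.8 CPM per kb in the 4 group means.

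Rgs2 is an RGS protein with a preference for Gq, the G protein alpha subunit that activates phospholipase C. In mice A, B and C its level was 344, 393 and 339 CPM in DMSO Ova and 355, 270.1 and 309 CPM in DMSO IC. With iBET it was 276, 272 and 257 CPM in Ova and 172, 155 and 133 CPM in IC. The iBET IC libraries lay below those of iBET Ova, the contrast on which Rgs2 was picked, and below those of both DMSO groups. The iBET Ova libraries lay below those of DMSO Ova but overlapped with those of DMSO IC. Over all genes, iBET libraries lay below DMSO libraries without overlap for 19.9% in Ova and 22.3% in IC. IC lowered the group mean in iBET from 269 ± 10.0 to 153 ± 19.7 CPM (SD, n = 3), 1.75-fold (log2 fold change -0.81), by -0.68, -0.82 and -0.95 on the log2 scale in mice A, B and C. Rgs2 was picked on this contrast, which is therefore given with no test. In DMSO the difference between IC and Ova was -0.21 (SE 0.12, adjusted p 0.611) and its sign was the same in 2 of 3 mice. Without DMSO Ova A it was -0.26 (SE 0.13, adjusted p 0.446). The difference between these responses, -0.60, holds the picking contrast and was not tested.

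The effect of iBET on Rgs2 was tested on the mean of the Ova and IC groups. The weights of this contrast are orthogonal to those of the picking contrast, but the iBET libraries are the same. The estimate is independent of the pick only if both iBET groups have equal spread. For Rgs2 the SD was 3.74% of the mean in iBET Ova and 12.9% in iBET IC, so freedom from the pick cannot be assumed. Rgs2 was lower with iBET by this measure, 1.65-fold (log2 fold change -0.72, SE 0.088, adjusted p 2.83e-05), in 3 of 3 mice. The separate differences, -0.42 in Ova and -1.02 in IC, share libraries with the picking contrast and are given as values only. With mouse as a block and DMSO Ova A left out, the averaged change was -0.80 and that in Ova -0.56.

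**Figure D2:**
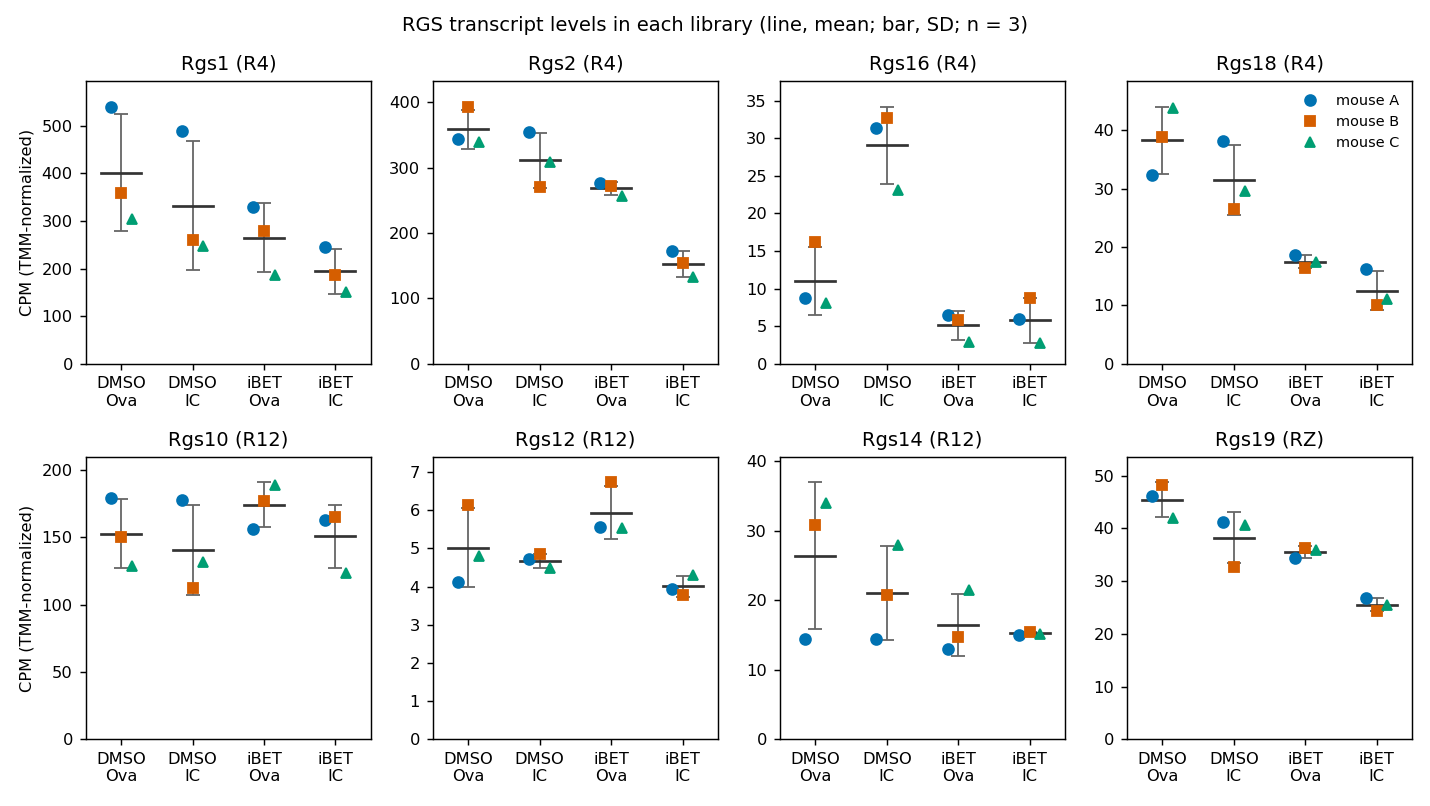
CPM of each RGS transcript in the 12 libraries, 1 panel per gene with its subfamily in brackets (symbols, mice; horizontal line, group mean; bar, SD; n = 3), on linear axes that start at 0. The 3 iBET IC libraries of Rgs2 sit between 133 and 172 CPM, below every other library, and Rgs16 stands at 23.2 to 32.7 CPM in DMSO IC against 16.3 CPM or less elsewhere. Rgs2 was picked for its fall from iBET Ova to iBET IC.

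The response to IC in DMSO asked which transcripts follow Fcγ receptor cross-linking without the inhibitor. By edgeR's quasi-likelihood test 0 of the 8 members were called, with 1.22% of all genes called in this contrast, and 2 members, Rgs16 and Rgs19, had an unadjusted p under 0.05, as had 11.7% of all genes. The median log2 fold change of the members was -0.23, and that of all genes tested was -0.010. Other tools gave 1 member (DESeq2) and 0 (limma on the normalized signal and limma voom).

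Rgs16, an R4 member known to be induced by inflammatory stimuli, had the largest change with IC. In mice A, B and C it was at 8.73, 16.3 and 8.12 CPM in DMSO Ova and at 31.3, 32.7 and 23.2 CPM in DMSO IC. Every DMSO IC library lay above every DMSO Ova library, as was so in this direction for 7.80% of all genes. The means were 11.0 ± 4.53 and 29.1 ± 5.14 CPM (SD, n = 3), a log2 fold change of 1.34 (SE 0.39, adjusted p 0.154) in the same direction in 3 of 3 mice. With mouse as a block Rgs16 was called higher with IC (1.35, SE 0.21, adjusted p 0.00406), in a fit that called 2.75% of all genes (1.47% higher), and it was called also by DESeq2 (adjusted p 0.0246). The adjusted p was 0.0119 with the block and DMSO Ova A left out, and 0.266 (log2 fold change 1.23) with that library left out and no block. The annotated antisense overlap of Rgs16 applies to these counts.

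With iBET, Rgs16 stood at 6.48, 5.85 and 2.93 CPM in Ova and at 5.92, 8.72 and 2.76 CPM in IC. These groups overlapped with each other, and both lay below DMSO Ova and DMSO IC except that the highest iBET IC library, at 8.72 CPM, exceeded the lowest DMSO Ova library, at 8.12 CPM. The response to IC in iBET was 0.19 on the log2 scale, with 1 of 3 mice higher. The interaction (the response to IC with iBET less the response with DMSO) was -1.15 for Rgs16 (SE 0.57, adjusted p 0.9999) and lower in 3 of 3 mice. It was not called for any of the 7 members tested, nor for any of the 11468 genes (0%), of which 2.55% had an unadjusted p under 0.05, and none of the 7 did. With the block the interaction of Rgs16 was -1.20 (SE 0.31, adjusted p 0.9998) with an unadjusted p of 0.00224, and Rgs16 was the 1 member of the 7 with an unadjusted p under 0.05, as had 3.86% of all genes. The difference in the IC response of Rgs16 between the arms was thus not called with or without the block.

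**Figure D3:**
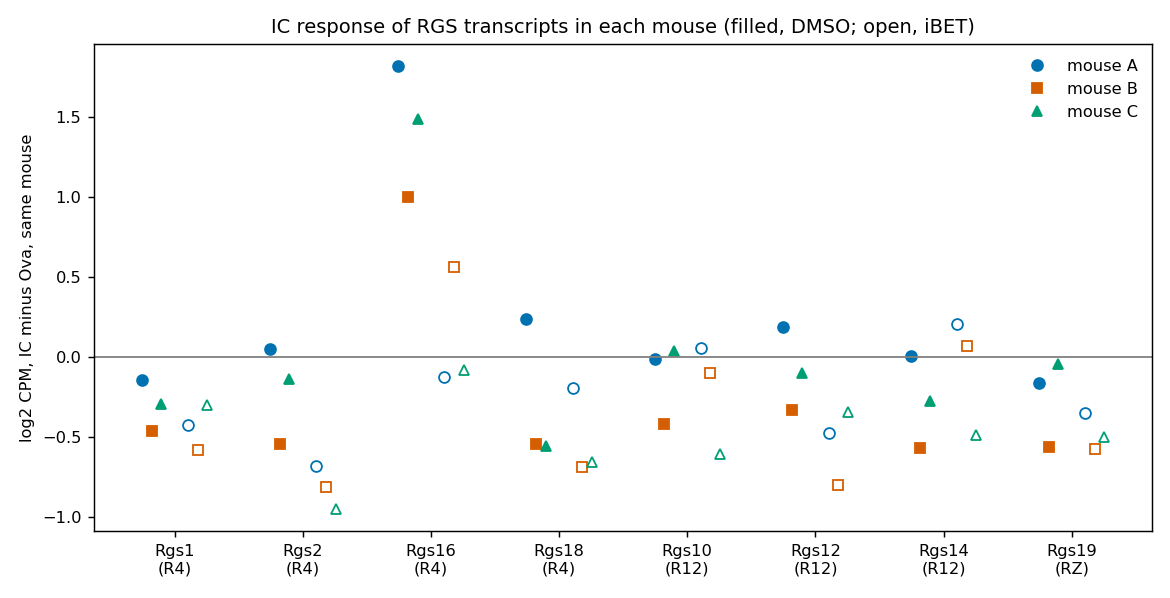
Difference in log2 CPM between the IC and Ova libraries of the same mouse for each RGS transcript (filled symbols, DMSO; open symbols, iBET; symbol shapes, mice). Rgs16 rises in all 3 mice in DMSO, by 1.00 to 1.82, and lies between -0.13 and 0.56 in iBET. Rgs2 lies between -0.68 and -0.95 in iBET, the contrast on which it was picked.

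The other members moved less with IC in DMSO. Rgs19, the RZ member, was at 46.2, 48.3 and 41.9 CPM in DMSO Ova and 41.3, 32.7 and 40.7 CPM in DMSO IC (mice A, B and C), so that the groups did not overlap, as was so in this direction for 7.47% of all genes. Its log2 fold change was -0.25 (SE 0.11, adjusted p 0.42). The groups of Rgs1 (-0.27), Rgs10 (-0.11), Rgs12 (-0.16), Rgs14 (-0.39) and Rgs18 (-0.30) overlapped. Without DMSO Ova A the values of Rgs1 and Rgs14 were -0.027 (adjusted p 0.986) and -0.64 (adjusted p 0.315). In iBET the values for IC against Ova, given without a test, were -0.56 for Rgs12, -0.48 for Rgs18, -0.48 for Rgs19, -0.44 for Rgs1, -0.21 for Rgs10 and -0.10 for Rgs14. The contrasts in DMSO and in iBET share no library, and the first 4 of these had the same sign in 3 of 3 mice in iBET. The value of Rgs1 moved with single libraries, to -0.26 without iBET Ova A, -0.29 without iBET IC C, -0.64 without iBET Ova C and -0.65 without iBET IC A.

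The comparison of iBET with DMSO asked how BET inhibition changes these transcripts whatever the stimulus. Averaged over Ova and IC, 6 of the 8 members were lower with iBET and 0 higher. In this contrast 48.6% of all genes were called, 22.6% lower and 26.0% higher. The median log2 fold change of the members was -0.65, and that of all genes tested was 0.0025. The members were chosen with earlier results of these data known, so these figures describe the 8 and do not test the family. All 4 R4 members, Rgs1, Rgs2, Rgs16 and Rgs18, were among the 6, with Rgs14 and Rgs19. For Rgs16, Rgs18 and Rgs19 the call held in all 26 alternatives run. It did so for Rgs2 too, but these fits reuse libraries on which Rgs2 was picked, so they are no further support. Leaving out an iBET library also breaks the orthogonality. Rgs2 is counted among the 6 under the limit given above. The block by mouse called the same 6, with 25.9% of all genes lower. In Ova alone 2 of 7 members (without Rgs2) were lower, Rgs18 and Rgs19, where 31.3% of all genes were called, 14.2% lower. In IC alone 3 of 7 were lower, Rgs16, Rgs18 and Rgs19, where 34.8% of all genes were called, 15.8% lower. The block gave 5 of 7 in Ova, adding Rgs1, Rgs14 and Rgs16, with 17.9% of all genes lower, and 4 of 7 in IC, adding Rgs1, with 19.8% of all genes lower. Comparisons in Ova and in IC use different libraries, while both enter the averaged one. Of the 8 macrophage markers, 3 were higher and 1 lower in the averaged comparison (median 0.19), and of the markers of other cell types tested, Cd79b of B cells, at 0.226 to 1.33 CPM, was called lower (-1.11), Zbtb46 of dendritic cells, at 0 to 1.21 CPM, higher (2.35), and the megakaryocyte and neutrophil markers were not called; the part of such cells in these results was not tested.

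**Figure D4:**
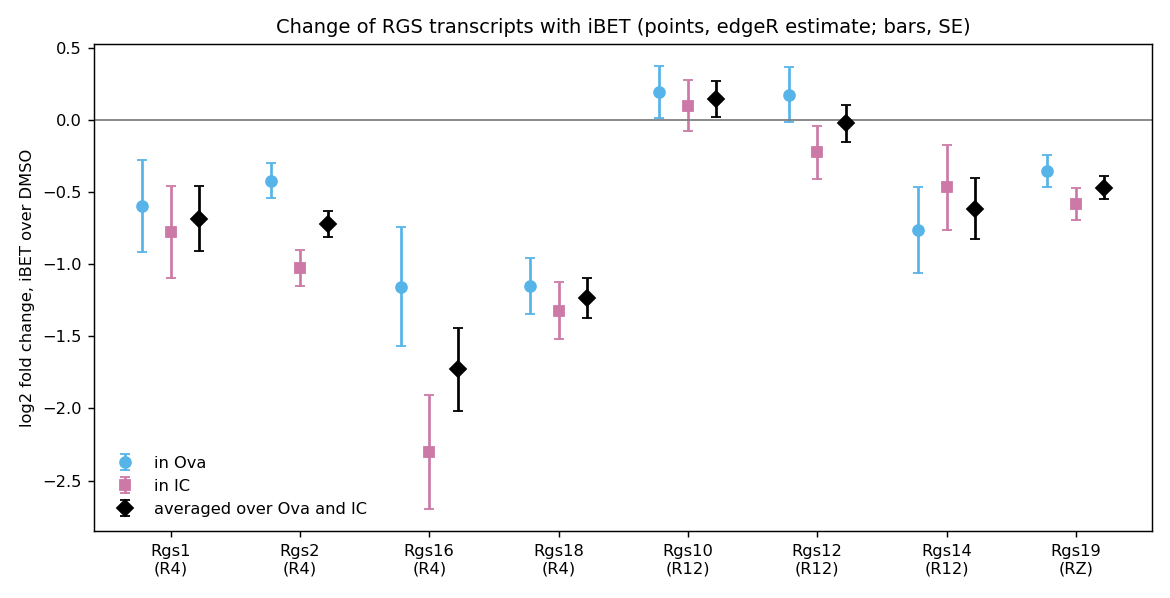
Log2 fold change of each RGS transcript with iBET over DMSO, in Ova, in IC and averaged over both (points, edgeR estimate; bars, SE). The averaged values run from -1.73 for Rgs16 to 0.15 for Rgs10, and those of Rgs10 and Rgs12 lie within 0.15 of 0; the Ova and IC values of Rgs2 share libraries with the contrast it was picked on.

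Rgs18, an R4 member best known from platelets and megakaryocytes, was at 32.4, 38.8 and 43.8 CPM in DMSO Ova and 38.1, 26.5 and 29.6 CPM in DMSO IC (mice A, B and C). With iBET it was at 18.7, 16.3 and 17.5 CPM in Ova and 16.3, 10.1 and 11.0 CPM in IC. All 6 iBET libraries lay below all 6 DMSO libraries, as was so for 12.1% of all genes. The averaged fall was 2.35-fold (-1.23, SE 0.14, adjusted p 1.37e-05), with -1.15 in Ova (adjusted p 0.00083) and -1.32 in IC (adjusted p 0.000266). Each of these was called also in all 12 fits that left out 1 library and all 3 that left out 1 mouse. Of 7 megakaryocyte and platelet markers, Gp9 and Gp6 were at 0, Ppbp, Itga2b, Gp1ba and Gp1bb stayed under 1 CPM (at most 12 counts), and only Pf4 was tested (36.2 to 69.5 CPM), with a change of -0.045 with iBET that was not called. The summed level of the list was 54.7 to 62.8 CPM in DMSO Ova, 47.9 to 61.0 in iBET Ova, 49.9 to 64.6 in DMSO IC and 37.9 to 70.3 in iBET IC.

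Rgs16 had the largest averaged fall, 3.31-fold (-1.73, SE 0.29, adjusted p 0.00044), with -2.30 in IC (SE 0.39, adjusted p 0.00103). In Ova its fall of -1.15 was not called (adjusted p 0.0548) although the groups did not overlap, as was so in this direction for 19.9% of all genes, and it was called with the block (adjusted p 0.00169). It was called in Ova also when DMSO Ova C (0.0433), iBET IC B (0.0431) or iBET IC C (0.027) was left out, which were 3 of the 12 fits without 1 library, and without mouse C (0.0337). The adjusted p was highest without DMSO Ova B, at 0.279 with a fall of -0.69, and without mouse B, at 0.307. Without mouse A the fall in IC was -2.26 with an adjusted p of 0.052.

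Rgs1, which in lymphocytes dampens responses to chemokines, was at 539.8, 358 and 305 CPM in DMSO Ova and at 489, 260.0 and 248 CPM in DMSO IC (mice A, B and C). With iBET it was at 329, 279 and 186 CPM in Ova and 245, 187 and 151 CPM in IC. The groups overlapped in Ova and did not in IC, as was so in this direction for 22.3% of all genes. Rgs1 was highest in mouse A and lowest in mouse C in all 4 groups, with a ratio of 1.63 to 1.97 between them. Of all genes, 3.51% were highest in mouse A in all 4 groups. Its averaged fall was 1.61-fold (-0.68, SE 0.23, adjusted p 0.0268) in 3 of 3 mice, by -0.85, -0.42 and -0.71. The block, which takes out the level of each mouse, gave an adjusted p of 2.32e-05, and called Rgs1 also in Ova (0.00164 against 0.185) and in IC (0.000299 against 0.0834). Without the block the averaged call was lost on leaving out DMSO Ova A (adjusted p 0.053), iBET Ova C (0.0531), DMSO IC A (0.0507), iBET IC B (0.0504) or iBET IC C (0.0652), and without mouse B (0.11) or mouse C (0.0549).

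Rgs19 was at 34.3, 36.4 and 36.0 CPM in iBET Ova and 26.8, 24.3 and 25.4 CPM in iBET IC (mice A, B and C). In both stimuli these were below the DMSO libraries given above, as was so in this direction for 19.9% of all genes in Ova and 22.3% in IC. The averaged fall was 1.38-fold (-0.47, SE 0.079, adjusted p 0.000376), with -0.35 in Ova (adjusted p 0.0311) and -0.58 in IC (0.0016), in 3 of 3 mice each. In Ova it was no longer called when DMSO Ova B (adjusted p 0.119), iBET Ova A (0.097), iBET Ova B (0.0715) or iBET Ova C (0.067) was left out, or mouse A (0.0648), B (0.195) or C (0.111), and the averaged call and that in IC held in these fits.

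Rgs14, an R12 member which binds Ras-family GTPases and inactive Gi alpha subunits beside its RGS activity, was at 14.4, 30.9 and 34.0 CPM in DMSO Ova and 14.5, 20.8 and 28.0 CPM in DMSO IC. With iBET it was at 13.04, 14.8 and 21.4 CPM in Ova and 15.1, 15.5 and 15.2 CPM in IC. Mouse A was lowest in all 4 groups and the groups overlapped. The averaged difference was -0.61 (SE 0.21, adjusted p 0.0298; block 0.00404), made up of -0.042 in mouse A, -0.74 in mouse B and -0.77 in mouse C. Without the block Rgs14 was not called in 8 of the 12 fits that left out 1 library. These were the fits without DMSO Ova B (adjusted p 0.0686), DMSO Ova C (0.0785), iBET Ova A (0.0739), iBET Ova B (0.069), DMSO IC C (0.0703), iBET IC A (0.0603), iBET IC B (0.0566) or iBET IC C (0.0553). It was lost also without mouse B (0.251) and mouse C (0.108). In Ova the fall of -0.76 was not called (adjusted p 0.0729), but was with the block (0.0112), without DMSO Ova A (-1.04, 0.00977), iBET Ova C (0.0431) or DMSO IC A (0.0329), and without mouse A (0.00495).

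Rgs10, a small member known for its abundance in microglia and other myeloid cells, was the member with the highest averaged value with iBET, at 0.15 (SE 0.13, adjusted p 0.348). It was at 179, 151 and 128 CPM in DMSO Ova, 156, 177 and 189 CPM in iBET Ova, 177, 113 and 132 CPM in DMSO IC and 163, 166 and 124 CPM in iBET IC (mice A, B and C). All 4 groups overlapped, and 2 of 3 mice were higher with iBET. Without mouse A the value was 0.30 and was called higher (adjusted p 0.0275), as it was with 1 surrogate variable in the fit (0.26, adjusted p 0.0157) and by limma voom with sample weights (0.27, adjusted p 0.0332).

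Rgs12, a large multidomain protein, was the least abundant member per kilobase, at 4.11, 6.13 and 4.81 CPM in DMSO Ova, 5.56, 6.73 and 5.53 CPM in iBET Ova, 4.71, 4.84 and 4.48 CPM in DMSO IC and 3.95, 3.78 and 4.31 CPM in iBET IC (mice A, B and C). The 8 to 80 counts behind these values limit their precision. Its averaged change was -0.022 (SE 0.13, adjusted p 0.904). The iBET IC libraries lay below those of the other groups except for 1 DMSO Ova library, and the IC libraries did not overlap between DMSO and iBET, as was so in this direction for 22.3% of all genes. In IC it was not called (-0.22, adjusted p 0.376).

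Among the 16 other RGS genes and associated family genes in the table, only Rgs3 passed the filter on low counts. The other 15 had at most 13 counts in any library, 7 of them (Rgs4, Rgs5, Rgs6, Rgs7, Rgs13, Rgs17 and Rgs21) with 0 in all 12. Rgs3, a further R4 member, was at 16.4, 14.6 and 13.4 CPM in DMSO Ova and 11.9, 10.7 and 10.0 CPM in iBET Ova. These did not overlap, as was so in this direction for 19.9% of all genes. In IC it was at 10.6, 11.9 and 12.6 CPM in DMSO and 10.1, 9.59 and 11.7 CPM in iBET, with overlap. Its averaged change with iBET was -0.29 (SE 0.10, adjusted p 0.0336) in 3 of 3 mice. An annotated antisense gene overlaps Rgs3.

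The rest of the G protein pathway was taken by role, from hand-written lists, in the averaged comparison of iBET with DMSO. The lists were chosen with earlier results of these data known, so their counts describe the listed genes and do not test a role. Of 24 receptors tested, 18 were lower and 2 higher (median -1.26), against 22.6% lower and 26.0% higher over all genes. Gpr183, a receptor for oxysterols, was lower (-3.56, SE 0.15, adjusted p 7.38e-09), while P2ry2, a nucleotide receptor, rose by 0.60 and C5ar1, the receptor for complement C5a, by 0.57. Of 10 G alpha subunits 5 were higher and 1 lower. The latter was Gna15, a Gq-class subunit of blood cells (-1.68, SE 0.12, adjusted p 4.3e-07), and the largest rises were in Gna11 (0.48) and Gna12 (0.43).

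The counts that follow stand against 26.0% higher and 22.6% lower over all genes. Of 12 beta and gamma subunits, 2 were higher, Gng7 (1.15) and Gng2 (0.32), and 3 were lower, among them Gnb4 (-1.22) and Gng11 (-0.94). Of 9 further regulators 2 were higher, Gpsm2 (0.43) and Ccdc88a (0.36), and 2 lower, Gpsm3 (-0.64) and Arrb1 (-0.49), which encodes an arrestin that uncouples receptors. Of 15 effectors 3 were higher and 6 lower. Plcb3, a phospholipase C, had the largest rise (0.60) and Pik3r5, a regulatory subunit of the PI3 kinase that beta and gamma subunits activate, the largest fall (-0.84), followed by Plcb4 (-0.75), with Pik3r6 at 0.51. Of 13 other genes with an RGS domain 6 were higher, led by Grk4 (1.59) and Arhgef11 (0.88), and 4 lower, led by the receptor kinases Adrbk2 (-1.17) and Adrbk1 (-0.38). Low levels limit the precision of some of these values. Group means were 1.21 to 3.56 CPM for Grk4, 1.83 to 8.90 for Adrbk2 and 1.32 to 2.78 for Gng11. Those of Gng7 were 0.95 to 3.48 CPM, with a lowest DMSO Ova library of 0. Over the G protein lists, IC in DMSO called 2 receptors higher and 1 lower, 1 gene with an RGS domain lower, and 0 in the others. Of all genes, 1.22% were called in that contrast.

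Pearson correlations of log2 CPM over the 12 libraries, which share mice, groups and depth, were taken to name the genes whose pattern was most like each member. For Rgs2 these were Ubald1 (0.93), Bloc1s5 (0.93), Fgd2 (0.92), Apbb1ip (0.92) and Cttnbp2nl (0.92). For the others they were Tlk1 for Rgs1 (0.97), Nr1h3, which encodes the oxysterol receptor LXR alpha, for Rgs16 (0.97), Trim34a for Rgs18 (0.96), Bloc1s5 for Rgs19 (0.95), Eif3k for Rgs10 (0.95), Rbmx for Rgs14 (0.94) and Ankzf1 for Rgs12 (0.89). Deviations from the group means correlated at 0.95 for Rgs1 with Tlk1. For Rgs2 they correlated at 0.90 with Ubald1, 0.75 with Apbb1ip, 0.56 with Cttnbp2nl, 0.18 with Bloc1s5 and 0.10 with Fgd2. Rgs2 thus shared differences between groups more than those between mice with Bloc1s5 and Fgd2, but shared both with Ubald1 and Apbb1ip. Nr1h3 was at 12.97 ± 4.98 CPM in DMSO Ova, 23.0 ± 4.20 in DMSO IC, 4.82 ± 1.24 in iBET Ova and 5.74 ± 1.55 in iBET IC (SD, n = 3). Among the members, Rgs2 and Rgs19 were the most alike pair over the libraries (0.96), followed by Rgs2 and Rgs18 (0.90).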

How the data were processed

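RNA-seq libraries of 12 BMDM samples were analysed, 4 groups of 3. The authors deposited counts per gene symbol, made (processing notes and methods) with Trim Galore, HISAT2 on mm10 and featureCounts. Annotation, strand use and treatment of reads with several alignments are not given in the sources used here. They also deposited a normalized signal, which equalled the counts over DESeq2 size factors (largest relative gap 5.11e-15).

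Counts were fitted in edgeR 4.0.16 (R 4.3.3) after filterByExpr (minimum count 10) and TMM, as 1 quasi-likelihood model with robust dispersion and a term per group. Tests were two-sided, with Benjamini-Hochberg adjustment over 11468 genes, and genes with an adjusted p under 0.05 were called. Log2 fold changes carry SE from the F statistic. CPM values are TMM-normalized, and the change in a mouse is its IC or iBET library less its control in log2 CPM (prior count 2). The script was tested on simulated data. Members and lists were chosen with earlier results of these data known. The contrast that picked Rgs2, IC against Ova in iBET, was not tested. Rgs2 was also not tested for iBET against DMSO in Ova or in IC, or for the interaction. Rgs2 was tested in the averaged comparison, which uses the same iBET libraries with weights orthogonal to those of the picking contrast. That frees the test of the pick only if both iBET groups have equal spread.

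All 8 members are named. Of each list of G protein genes, the 2 largest rises and the 2 largest falls called in the averaged comparison were named, and of genes like a member the 5 (Rgs2) or 1 (others) with the highest correlation. Some genes that this rule selects are not reported here.

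The labels give each library's mouse, which pairs libraries across groups. Deviations from group means correlated at -0.07 to 0.54 in the 18 pairs from 1 mouse (median 0.26, 12 over 0.1), with a median of -0.13 between mice. Alternatives were mouse as a block (edgeR, DESeq2 1.42.0), DESeq2, DESeq2 size factors, no filter, at least 10 counts in every library, 1 surrogate variable (sva 3.50.0), the compared groups alone, the normalized signal in limma 3.58.1 as log2(value + 1), limma voom with sample weights, counts without Rn45s, an adjusted p under 0.01, and leaving out each library and each mouse. The block with DMSO Ova A left out was chosen after seeing the data.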

Additional observations from a re-analysis of the deposited data

Results flagged for a closer look

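Rgs12 had differences with iBET of opposite sign in the 2 stimuli in every mouse. In Ova it was higher in 3 of 3 mice (log2 fold change 0.18, SE 0.19, adjusted p 0.575 by edgeR's quasi-likelihood test) and in IC lower in 3 of 3 mice (-0.22, SE 0.19, adjusted p 0.376). The Ova value was 0.063 (adjusted p 0.854) without DMSO Ova A, which held 8 counts of Rgs12. The difference itself, tested as the interaction, was -0.40 (SE 0.26, adjusted p 0.9999) and was not called. No other member met this condition, and groups of 3 libraries were not examined for single outlying libraries.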

How the results depend on the processing

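Over all members, contrasts and alternatives, 890 of the tested values kept their direction and their side of the threshold, 42 gained a call, 28 lost one and 19 changed sign, and of the values without a test 290 moved by less than the spread between replicates and 5 by more. Of these 5, 4 were the difference of Rgs1 between IC and Ova in iBET, each without 1 library (-0.65 to -0.26), and 1 was Rgs2 with iBET in Ova (-0.56 with the block and DMSO Ova A left out). The number of members called for IC against Ova in DMSO went from 0 to 1 (Rgs16) with DESeq2, with the mouse block in edgeR or in DESeq2, and with the block and DMSO Ova A left out, and stayed at 0 on leaving out any library or mouse. For iBET against DMSO in Ova, 2 became 4 with DESeq2 and with limma voom, 5 with the mouse block in edgeR or in DESeq2 and with the block without that library, and 1 with no filter and at an adjusted p under 0.01. It was 1 to 3 on leaving out a library or mouse. For iBET against DMSO in IC, 3 became 5 with 1 surrogate variable. The averaged comparison gave 4 to 7 of 8, and the interaction 0, in every alternative run. Rgs10, which was higher, was among those called in the averaged comparison with 1 surrogate variable, with limma voom and without mouse A. The paired analysis changed no other call of a member than those given here and in the text. For IC against Ova in DMSO over all genes, 140 were called and 268 with DESeq2, 437 with the block in DESeq2, 504 with 1 surrogate variable, 5 with the compared groups alone, and 0 without mouse B.

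Signs changed only in values that were not called. On leaving out a library or mouse, Rgs10 ranged from -0.31 to 0.026 for IC in DMSO, from -0.11 to 0.27 for iBET in IC and from -0.28 to 0.16 for the interaction. Rgs12 ranged from -0.25 to 0.024 for IC in DMSO and from -0.089 to 0.071 for iBET averaged, and the interaction from -0.41 to 0.21 for Rgs1 and from -0.43 to 0.0019 for Rgs18. The interaction of Rgs18 was 0.060 with limma voom and 0.071 with the block and DMSO Ova A left out. The causes were not tested. Depth limits Rgs12 and Rgs16 most, and 3 mice limit all values.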
